A study of Mus musculus with 17 samples.

Results

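Pomc, Cartpt, Npy and Agrp encode the feeding peptides of the arcuate nucleus, the part of the hypothalamus that reads leptin and insulin from the blood. Every probe set whose gene symbol field holds one of these names was taken, which gave 4 probe sets of 22626 on the array (control probe sets left out): 2 for Pomc (1433800_a_at and 1455858_x_at), 1 for Cartpt (1422825_at) and 1 for Npy (1419127_at). These are 3 of the 13319 genes named on the array. Each field held a single symbol, so none was ambiguous. Agrp was not analysed here.

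Hypothalamic RNA was measured on Affymetrix mouse expression arrays from 17 male C57Bl/6 mice aged 9 weeks, 1 array for each hypothalamus. The 6 control mice were wildtype and received vehicle. Another 6 wildtype mice received 1 intraperitoneal dose of streptozotocin (STZ, 200 µg per g body weight), which destroys the insulin-producing beta cells, and 5 mice were of the ob/ob genotype, a mutation that leaves the animal without leptin, obese and resistant to insulin. The labels state no injection for ob/ob mice beyond the protocol text that all samples share. The time from injection, the feeding state and whether the controls were littermates are not given in the sources used here. The values were MAS5 signals on a linear scale. Nothing in the labels says more of how the mice were housed or handled, so a p-value here speaks of the spread among these arrays only, part of which may be technical.

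In the arcuate nucleus 2 sets of neurons act against each other. Neurons that make Pomc, most of them together with the Cartpt peptide CART, restrain feeding: Pomc is cut into alpha-MSH, which activates the melanocortin receptors. Neurons that make Npy and Agrp drive feeding, Npy through its own receptors and Agrp by blocking those of alpha-MSH. Leptin and insulin are known to raise Pomc and to restrain Npy and Agrp. Cartpt and Npy are also made elsewhere in the hypothalamus and forebrain, so a whole hypothalamus reads more than the arcuate cells.

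The upstream sequences are shown because these genes carry the pattern described here. Each is the 250 bases before the RefSeq start of the gene (GRCm38.p6), 5′ to 3′ on the strand of the gene, and capitals mark the motifs found. The Pomc window is chr12:3954695-3954944 (plus strand), before a gene that spans chr12:3954945-3960643. That of Cartpt is chr13:99900684-99900933 (minus strand), and the Cartpt gene spans chr13:99898483-99910179, so this window, set by the start in the promoter table, lies inside the gene's span. That of Npy is chr6:49822460-49822709 (plus strand), before a gene that spans chr6:49822710-49829507.
Pomc: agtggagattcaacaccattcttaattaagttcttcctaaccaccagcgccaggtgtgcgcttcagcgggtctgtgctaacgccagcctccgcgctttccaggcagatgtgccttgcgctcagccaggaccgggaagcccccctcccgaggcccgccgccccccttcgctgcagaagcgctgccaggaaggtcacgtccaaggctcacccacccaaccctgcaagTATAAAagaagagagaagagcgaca
Cartpt: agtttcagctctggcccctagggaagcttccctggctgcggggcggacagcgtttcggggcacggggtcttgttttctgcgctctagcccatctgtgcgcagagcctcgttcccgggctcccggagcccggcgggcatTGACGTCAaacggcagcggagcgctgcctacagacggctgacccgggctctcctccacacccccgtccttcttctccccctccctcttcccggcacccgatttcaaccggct
Npy: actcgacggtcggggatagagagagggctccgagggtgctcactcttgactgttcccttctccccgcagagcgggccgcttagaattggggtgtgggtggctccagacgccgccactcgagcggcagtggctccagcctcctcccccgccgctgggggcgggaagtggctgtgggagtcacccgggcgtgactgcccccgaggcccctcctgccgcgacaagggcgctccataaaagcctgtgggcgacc
Both strands were searched for the core promoter motif TATAAA and for TGACGTCA (a full cyclic AMP response element). The shorter core of that element, TGACG, overlaps it and was counted separately. The STAT factor motif searched was TTCNNNGAA. The FoxO factor motif was GTAAACA. The E-box was CACGTG. Pomc held TATAAA at positions -25 to -20 relative to its start, a motif present in 12.4% of 32851 promoter windows of this length. Cartpt held TGACGTCA at positions -112 to -105, a motif present in 1.55% of windows. The part TGACG alone was in 17.8% of windows and, of these genes, in Cartpt. The letters searched for STAT, FoxO and E-box motifs, found in 7.02, 3.17 and 6.02% of windows, were in none of these windows.

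Pomc fell in both models, on the probe set that was bright enough to be tested (Pomc 1433800_a_at). In the control mice its signal ran from 1332 to 2118 with a median of 1716. In STZ mice it ran from 891 to 1233 with a median of 1075. In the ob/ob mice it was 953, 1325, 1005, 845 and 920. Every STZ and every ob/ob array lay below the lowest control, although ob/ob 2 came within a few units of control 6.

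The mean Pomc signal was 1697 ± 276 (SD, n = 6) in controls, 1073 ± 129 (n = 6) in STZ and 1010 ± 186 (n = 5) in ob/ob mice. In STZ mice Pomc fell to 0.635 of its control level, a log2 fold change of -0.65 ± 0.12 (SE; adjusted p = 0.0384 by limma, adjusted over 13576 probe sets). In ob/ob mice it fell to 0.594, a log2 fold change of -0.75 ± 0.12 (adjusted p = 0.0121). Of the 3 member probe sets tested, Pomc was the 1 called in either comparison, where 0.0516% of all probe sets tested were called in STZ and 0.125% in ob/ob. Groups that did not overlap were seen for 0.567% of probe sets in STZ and 1.91% in ob/ob against control. The exact permutation p, two-sided, was 0.00216 over the 924 splits for STZ and 0.00433 over the 462 splits for ob/ob, the smallest these designs can give.

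The STZ call for Pomc stood near the threshold. It was lost without control 1, 2, 3, 4 or 5 or without STZ 2, 4, 5 or 6, each left out alone, with adjusted p (limma) from 0.0555 to 0.112 and log2 fold changes from -0.69 to -0.59, and the adjusted p was 0.0569 with no filter on low signal, 0.0634 without a variance trend and 0.0666 with the level of pituitary markers as a covariate. The ob/ob call held without each of the 11 arrays in turn (adjusted p by limma from 0.00346 to 0.0452), but it was lost in a fit of these groups alone (adjusted p = 0.052). With the level of markers of neighbouring brain regions as a covariate both calls were lost (limma, adjusted p = 0.17 in STZ and 0.154 in ob/ob). The log2 fold changes were then -0.59 and -0.66. Of all 13576 probe sets, 7 were called in STZ and 0 in ob/ob with that covariate.

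**Figure D1:**
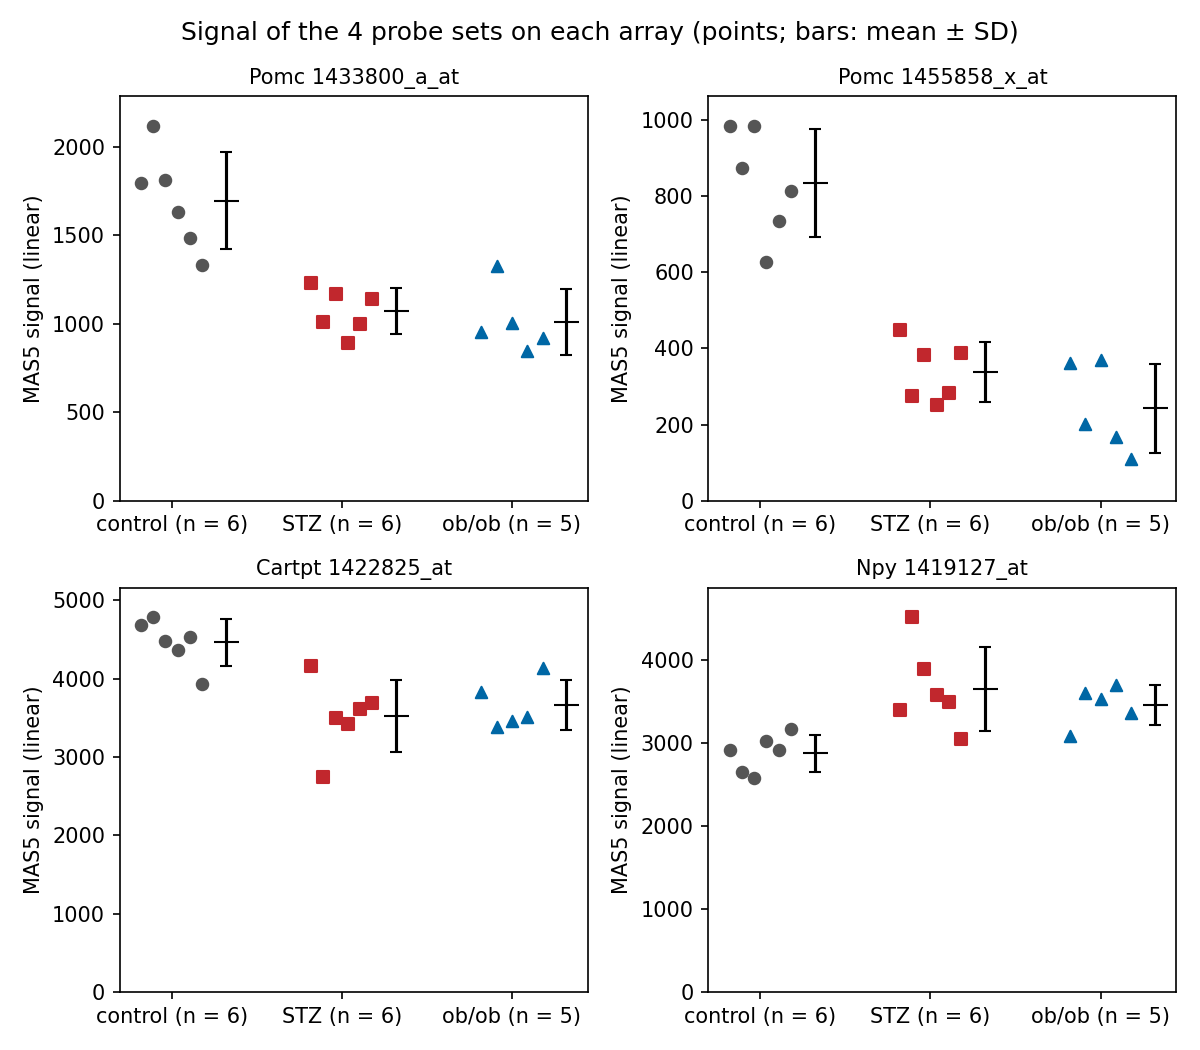
MAS5 signal (linear axes from 0) of each probe set on each of the 17 arrays, by group; points are arrays and bars the mean ± SD. Both Pomc panels show every STZ and ob/ob array below the 6 controls, while Cartpt and Npy shift in opposite directions with overlap between the groups.

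The other Pomc probe set, 1455858_x_at, was dimmer and showed larger ratios. Its geometric mean over all 17 arrays was 404, under the 435 required for testing, so its values come from the same fit without that filter (22626 probe sets). Its name ending in _x_at marks probes that may bind other transcripts as well. The signal ran from 626 to 984 in controls (median 843) and from 251 to 447 in STZ mice (median 333). In ob/ob mice it was 362, 202, 370, 168 and 111. Again every STZ and ob/ob array lay below every control, and the ob/ob arrays lay farther apart here than on 1433800_a_at.

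On 1455858_x_at Pomc fell in ob/ob mice to 0.265 of control, a log2 fold change of -1.92 ± 0.26 (limma, adjusted p = 0.00644). In STZ mice it stood at 0.40 of control, -1.32 ± 0.25, and missed the threshold (adjusted p = 0.0781), which it passed with a pseudocount of 64 (adjusted p = 0.0445) and with the fit on these groups alone (adjusted p = 0.0155). Without the filter, 0.0309% of probe sets were called in STZ and 0.0619% in ob/ob against control, and groups did not overlap for 0.442 and 1.33%. The exact permutation p values were again the smallest possible, 0.00216 and 0.00433.

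The pair of Pomc probe sets differed in the size of the change on the log2 scale. The log2 difference within an array, 1455858_x_at minus 1433800_a_at, averaged -1.02 ± 0.26 (SD, n = 6) in controls, -1.69 ± 0.17 (n = 6) in STZ and -2.19 ± 0.75 (n = 5) in ob/ob mice. The shift from control was -0.67 in STZ (exact permutation p = 0.00216) and -1.16 in ob/ob (exact permutation p = 0.00433), a test added after the values were seen. Between ob/ob and STZ it was -0.50 (exact permutation p = 0.152). Over the 17 arrays, with each group mean subtracted, the probe sets had a Pearson r of 0.37 and a Spearman rho of 0.53, given as a description: ob/ob 2 was the highest ob/ob array on 1433800_a_at and only the third on 1455858_x_at. With a pseudocount of 64 the shift from control was -0.55 in STZ and -0.91 in ob/ob (exact permutation p = 0.00216 and 0.00866). The ob/ob and control values of this difference then overlapped. The direction of the Pomc change was therefore the same on both probe sets, and its size as a log ratio was not.

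**Figure D2:**
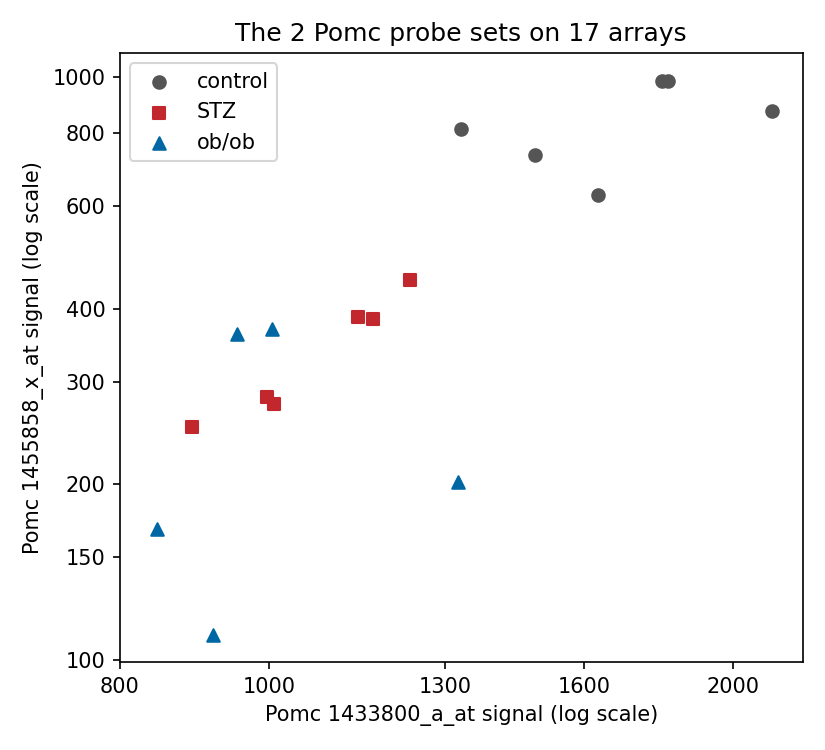
Signals of the Pomc probe sets on the 17 arrays, 1433800_a_at across and 1455858_x_at up (both log axes). Controls lie at the upper right; the vertical gap between controls and the other groups is wider than the horizontal one.

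Cartpt, the precursor of the CART peptide, stood lower in both models without passing the test. Its signal ran from 3934 to 4780 in controls (median 4506). In STZ mice it ran from 2745 to 4165 (median 3553). In ob/ob mice it was 3826, 3383, 3462, 3512 and 4141. All but 1 control (control 6, at 3934) lay above every STZ and every ob/ob array, and 5 of 6 STZ and 4 of 5 ob/ob arrays lay below every control.

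The Cartpt mean was 4463 ± 298 (SD, n = 6) in controls, 3521 ± 461 (n = 6) in STZ and 3665 ± 315 (n = 5) in ob/ob mice. The log2 fold change was -0.35 ± 0.078 in STZ (0.784 of control; limma, adjusted p = 0.134) and -0.29 ± 0.082 in ob/ob (0.82 of control; adjusted p = 0.149). By exact permutation the unadjusted p was 0.00433 in STZ and 0.00866 in ob/ob, among 12 such tests of the member probe sets. Without STZ 1, the highest STZ array, the STZ difference was -0.40 and passed (limma, adjusted p = 0.0304).

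Npy, the peptide of the neurons that drive feeding, stood higher in both models, also without passing. Its signal ran from 2573 to 3172 in controls (median 2912). In STZ mice it ran from 3042 to 4510 (median 3531). In ob/ob mice it was 3085, 3603, 3524, 3701 and 3360. The groups overlapped through control 6 (3172), STZ 6 (3042) and ob/ob 1 (3085), while 5 of 6 STZ and 4 of 5 ob/ob arrays lay above every control.

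The Npy mean was 2874 ± 226 (SD, n = 6) in controls, 3650 ± 503 (n = 6) in STZ and 3455 ± 241 (n = 5) in ob/ob mice. The log2 fold change was 0.34 ± 0.077 in STZ (1.26-fold; limma, adjusted p = 0.146) and 0.27 ± 0.081 in ob/ob (1.20-fold; adjusted p = 0.176). The exact permutation p, unadjusted, was 0.00433 in STZ and 0.00866 in ob/ob. Set among the 13576 probe sets, the Npy difference was at the 98.9th percentile in STZ and at the 96.6th in ob/ob, and that of Cartpt at percentiles 0.302 and 1.24, where the medians over all probe sets were 0.0006 and -0.00051. Since both comparisons use the same 6 controls, the likeness of the models is not independent evidence.

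**Figure D3:**
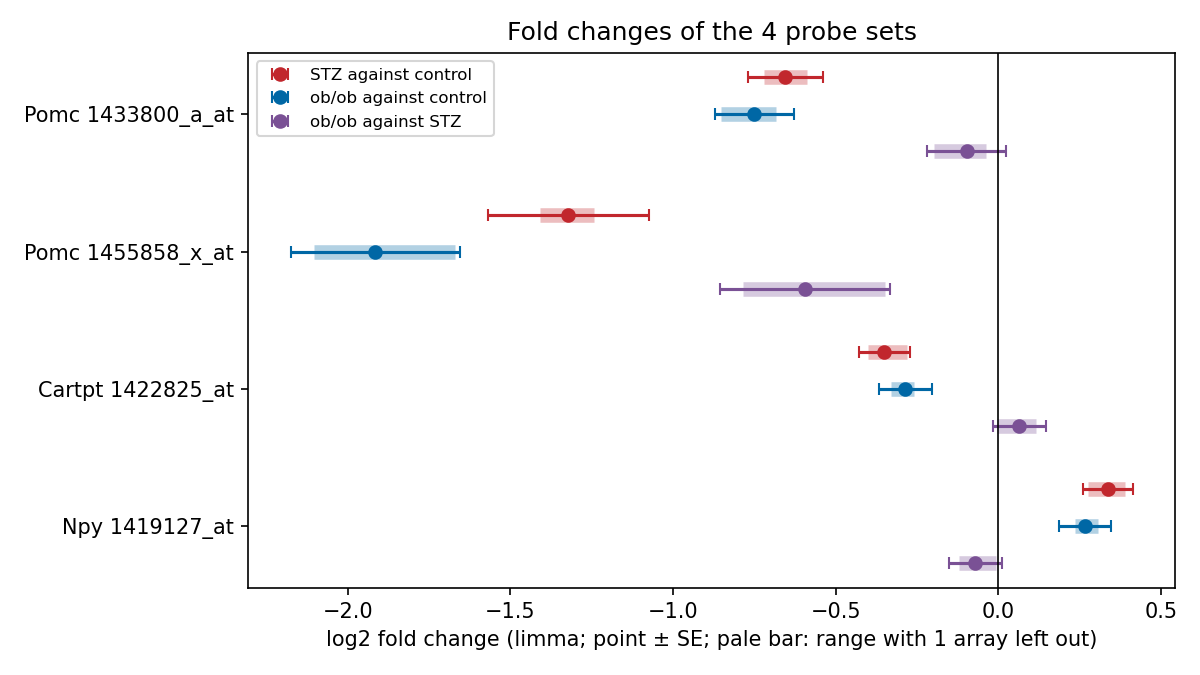
Log2 fold changes (limma, point ± SE) of the probe sets in each comparison; pale bars are the range when 1 array is left out. Pomc lies left of 0 and Npy right of 0 against control, and the values of ob/ob against STZ lie nearer 0 than those against control.

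The direct comparison asked whether the ob/ob and STZ mice differed in these genes. In ob/ob against STZ, Pomc on 1433800_a_at stood at -0.10 (95% interval -0.35 to 0.16), Cartpt at 0.065 (-0.11 to 0.23) and Npy at -0.071 (-0.24 to 0.098), each with an adjusted p of 0.9996 by limma. The 1433800_a_at interval leaves room for a Pomc signal of that probe set in ob/ob between 0.784 and 1.12 of that in STZ. On 1455858_x_at Pomc stood at -0.59 (-1.14 to -0.049; unadjusted p = 0.0343, adjusted p = 0.9996 by limma), with 3 of 5 ob/ob arrays below every STZ array. None of the 4 probe sets was called, where 0.0368% of probe sets were with the filter and 0.00442% without it. A difference between the models was thus not detected, which does not show that they were alike.

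Cartpt and Npy moved against each other over the 17 arrays with group means subtracted. The relation did not pass within the control or the STZ arrays alone. STZ 2 had the lowest Cartpt (2745) and the highest Npy (4510) of all 17 arrays. Control 6 had the lowest Cartpt and Pomc (3934 and 1332) and the highest Npy (3172) of the controls. With each group mean subtracted, Cartpt and Npy had a Pearson r of -0.76 over the 17 arrays (permutation p = 0.00522, adjusted p = 0.047 over the 9 relations tested) and a Spearman rho of -0.77 (permutation p = 0.00112, adjusted p = 0.0101). Without the 2 arrays farthest from the median of Cartpt, r was -0.63. Within the 6 controls r was -0.69 (exact permutation p = 0.122, adjusted p = 0.22; rho -0.66) and within the 6 STZ arrays -0.82 (exact permutation p = 0.0694, adjusted p = 0.156; rho -0.89). In the controls the relation rested on 2 arrays: over the 4 left without those farthest from the median r was -0.042, against -0.76 over 4 in STZ.

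The call for Cartpt and Npy was near the threshold too. It was lost without control 2, 4, 5 or 6, STZ 2, 3, 4 or 5, or ob/ob 1, 2, 3 or 4, each left out alone (permutation, adjusted p from 0.0512 to 0.156), with r between -0.78 and -0.57 and the weakest value without STZ 2. Among 7852 other genes, the group-centred pattern of Npy was the second most opposite to that of Cartpt, after Slain2 (r = -0.79) and before Golm1 (r = -0.75). Cartpt was likewise the second most opposite to Npy, after Sh3bgrl2 (r = -0.76).

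The relations of Pomc to either gene did not pass, and differences between correlations were not tested. With group means subtracted, Pomc (1433800_a_at) and Cartpt had r = 0.30 (permutation p = 0.243, adjusted p = 0.284; rho 0.32) over the 17 arrays, and Pomc and Npy r = -0.31 (permutation p = 0.214, adjusted p = 0.284; rho -0.29). Without the 2 arrays farthest from the median of Pomc these were 0.46 and -0.40. Single arrays moved the value for Pomc and Cartpt: r was 0.52 without ob/ob 2 (permutation p = 0.0376, adjusted p = 0.113), 0.16 without control 6 and 0.19 without STZ 1. That for Pomc and Npy was -0.47 without ob/ob 2 (permutation p = 0.0817, adjusted p = 0.147). With 1455858_x_at in place of 1433800_a_at the values were 0.11 for Cartpt and -0.34 for Npy. In the 6 controls Pomc and Cartpt had r = 0.84 (exact permutation p = 0.0375, adjusted p = 0.156; rho 0.71) and Pomc and Npy r = -0.81 (exact permutation p = 0.0542, adjusted p = 0.156; rho -0.89), and without the farthest pair of arrays, which leaves 4, these were 0.27 and -0.56. In the 6 STZ arrays they were 0.54 (exact permutation p = 0.253, adjusted p = 0.284; rho 0.60) and -0.27 (exact permutation p = 0.617, adjusted p = 0.617; rho -0.26), and 0.49 and -0.38 without that pair. No correlation was computed within the 5 ob/ob arrays, since at least 6 arrays were required for one. Before the group means were subtracted, r over the 17 arrays was 0.72 for Pomc and Cartpt, -0.72 for Pomc and Npy and -0.90 for Cartpt and Npy. Those values also hold the differences between groups and are a description.

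**Figure D4:**
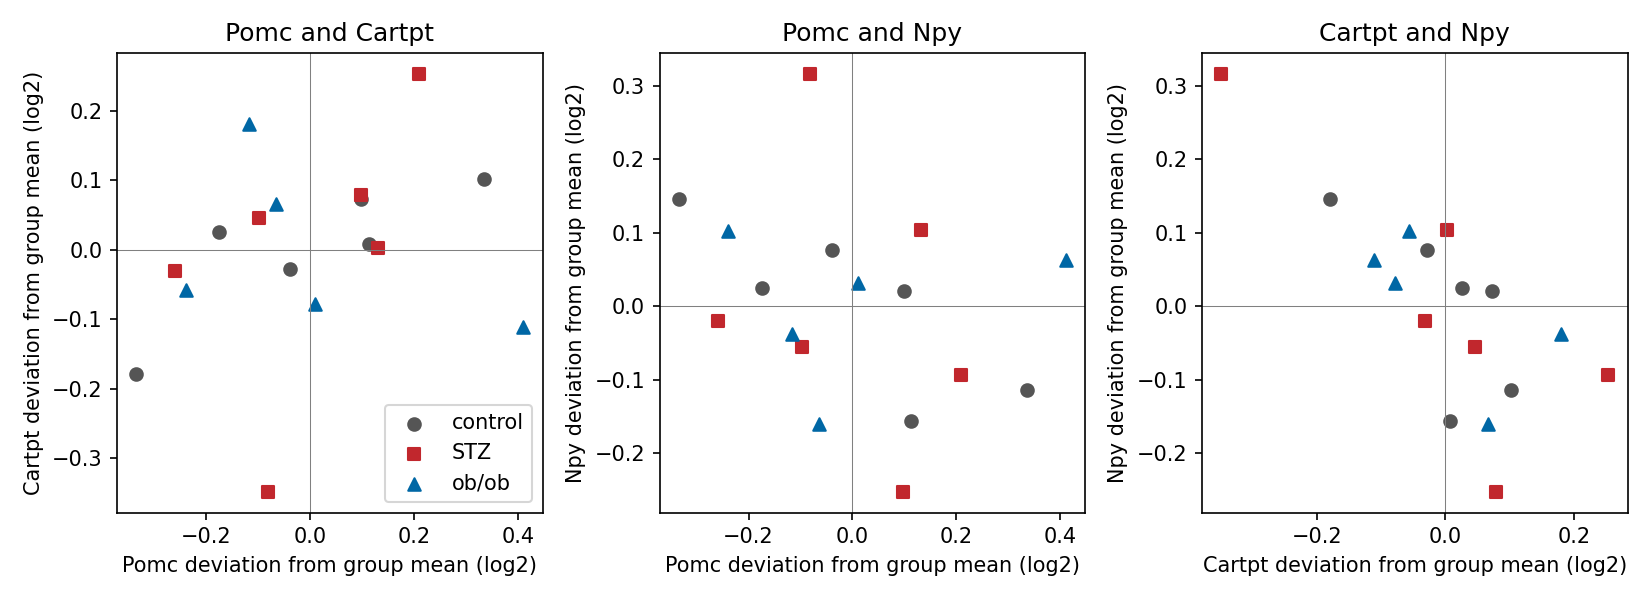
Deviations from the group mean (log2 signal) of each array for the pairs of genes; symbols give the group. Cartpt and Npy slope downward (r = -0.76 over 17 arrays), while the panels with Pomc scatter widely (r = 0.30 and -0.31).

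The genes most like each member in this group-centred pattern were searched among 7852 genes and are a description. For Pomc on 1433800_a_at they were Inpp5e, Pold2, Carm1, Ikzf4 and Arhgef12 (r from 0.75 to 0.77), and the most opposite were Snx10, 1110004F10Rik and Trub2 (r from -0.80 to -0.76). For Pomc on 1455858_x_at they were Ank1 (r = 0.89), Sdc4, Uty, Lmnb1 and Slbp, with Ctdnep1 (r = -0.86), Xpnpep1 and Tmem80 opposite. For Cartpt they were Fbxw8 (r = 0.86), Sec61a1, Palmd, Fbxl6 and Kdm4b. For Npy they were Ctnnbl1, Lrrfip2, 2410002F23Rik, Gripap1 and Nktr (r from 0.76 to 0.77), with U2af2 (r = -0.75) among the most opposite besides Sh3bgrl2 and Cartpt. No gene was among the 5 most like on both Pomc probe sets.

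None of the other genes of the pathway passed the test. In 6 lists of these genes 0 of 40 tested passed in either comparison with control by limma, where 1 had an unadjusted p under 0.05 in STZ and 10 in ob/ob. Of all probe sets tested, 8.24% had one in STZ and 11.9% in ob/ob. Only 0.0516% of all probe sets tested were called in STZ and 0.125% in ob/ob. A count of 0 among 40 genes therefore says little about these lists. Of the prohormone processing genes, which cut and finish peptides such as Pomc, 7 of 8 were tested, with a median log2 fold change of 0.021 in STZ and -0.031 in ob/ob. Furin, a convertase, stood at 0.24 and 0.15, Scg5, the chaperone of the convertase Pcsk2, at 0.075 and 0.036, and Pcsk1n, an inhibitor of Pcsk1, at -0.065 and -0.075 (STZ and ob/ob). Of 15 receptors and modifiers 5 were tested, with medians of -0.017 and -0.082. The Npy receptor Npy2r stood at -0.14 in both, Npy5r at 0.077 and -0.082, and Atrn, an accessory protein of melanocortin signalling, at 0.048 and -0.083. Npy1r, Npy4r, Npy6r, Mc5r and Oprm1 were too dim to be tested.

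Of 15 genes of leptin, insulin and ghrelin signalling 10 were tested, with medians of 0.043 in STZ and -0.042 in ob/ob. Foxo1, a transcription factor that insulin signalling keeps out of the nucleus and that is known to raise Agrp and repress Pomc, stood at 0.21 ± 0.11 in STZ and 0.32 ± 0.12 in ob/ob (limma, adjusted p = 0.652 and 0.271). Mtor, a nutrient-sensing kinase, stood at 0.04 and 0.091, and Irs2, an adaptor of the insulin receptor, at 0.074 and -0.44. Lepr, Insr and Socs3 were too dim. Of 14 transcription factors 5 were tested, with medians of 0.059 and 0.21: Klf4 stood at 0.059 and 0.45, Nr4a1, an orphan receptor, at 0.34 and 0.32, and Nr3c1, the glucocorticoid receptor, at -0.058 and -0.18.

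Other products of arcuate neurons, 8 of 10 tested, had medians of -0.021 and -0.03. Gal, galanin, stood at -0.06 in STZ and -0.29 ± 0.072 in ob/ob (limma, adjusted p = 0.0886). Tac2, the neurokinin B precursor, stood at -0.093 and -0.25, and Gad2, which makes GABA, at -0.083 and -0.16. Ghrh, growth hormone-releasing hormone, was too dim to be tested and is named after its values were seen: it stood at 0.30 in STZ and, lower than Pomc 1433800_a_at, at -0.93 ± 0.35 in ob/ob mice (limma without the filter on low signal, unadjusted p = 0.0161). Of 9 further feeding peptides 5 were tested, with medians of -0.021 and -0.073. Hcrt, the orexin precursor, stood at -0.15 in STZ and -0.50 ± 0.11 in ob/ob (limma, adjusted p = 0.0687), Trh at -0.18 and -0.37 and Cck at 0.20 and 0.42.

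**Figure D5:**
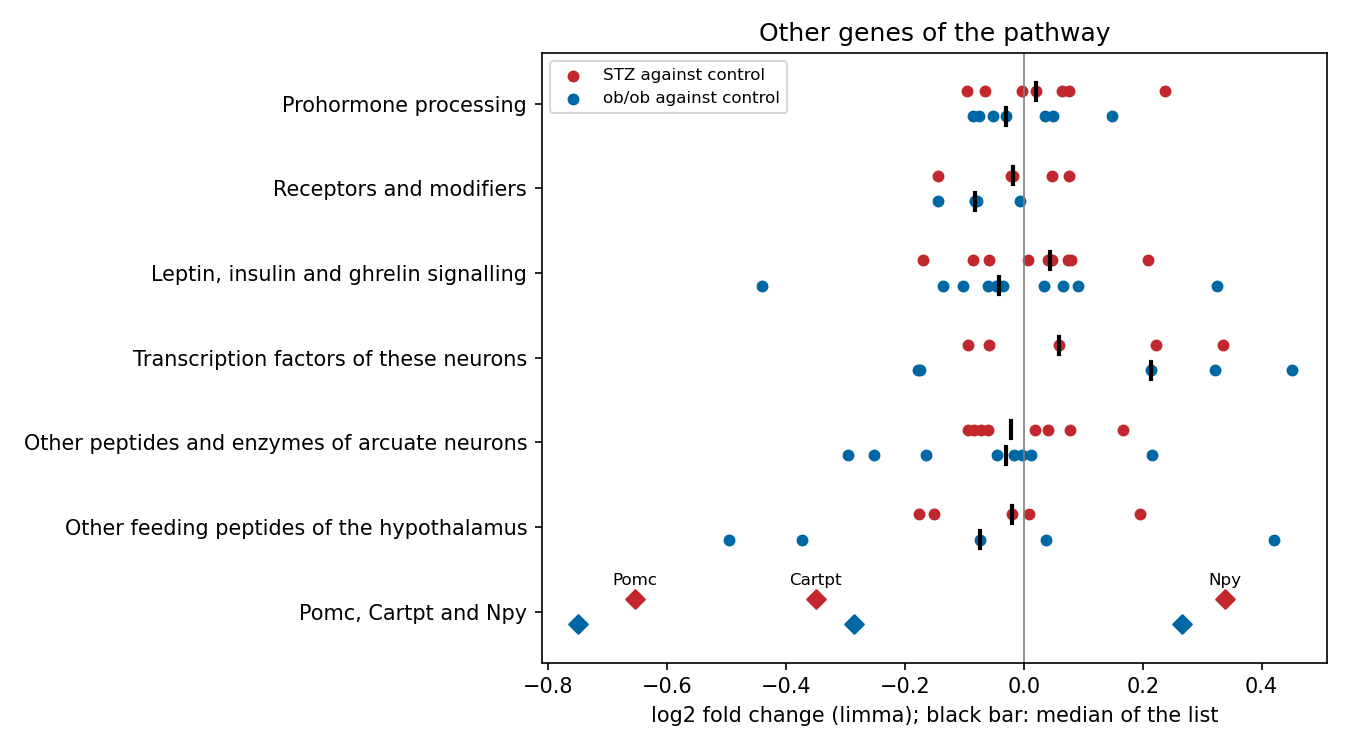
Log2 fold changes of the tested genes of each pathway list in STZ (red) and ob/ob (blue) against control; black bars are list medians and diamonds the brightest probe set of Pomc, Cartpt and Npy. List medians lie between -0.082 and 0.21, and Pomc lies lower than every tested gene of the lists.

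The array level and the tissue were checked against markers. The median signal of an array ran from 638 to 707, and the hypothalamic genes Hcrt, Avp and Oxt had control geometric means of 7620, 12273 and 11645. They belong to 11 hypothalamus markers measured, of which only 6 were bright enough to be tested. Trh is also among the 11. Hcrt and Trh are feeding peptides given above, so the level of these markers also holds their differences. In ob/ob Hcrt was the lowest of the 6 tested (-0.50), and 1 of the 6 stood above 0. Hypothalamus markers (11 genes) stood at -0.062 in STZ and -0.16 in ob/ob against control (exact permutation p = 0.459 and 0.0476), with summed signals of 32087 to 41320 in control, 31635 to 47745 in STZ and 30161 to 37306 in ob/ob mice. Markers of striatum, cortex and thalamus (18 genes) stood at 0.15 and 0.21 (exact permutation p = 0.177 and 0.0952), with summed signals of 24139 to 36255, 28434 to 41192 and 34913 to 40911. With the level of these region markers as a covariate, Pomc on 1433800_a_at stood at -0.59 in STZ and -0.66 in ob/ob and no longer passed (limma, adjusted p = 0.17 and 0.154), nor did 1455858_x_at in ob/ob (-1.70, adjusted p = 0.167). Cartpt then stood at -0.33 and -0.26 and Npy at 0.31 and 0.23. Of the 13576 probe sets tested with this covariate, 7 were called in STZ and 0 in ob/ob. Taken apart, striatum markers stood at 0.17 in STZ and 0.36 in ob/ob (exact permutation p = 0.359 and 0.0216). Those of cortex and hippocampus stood at 0.088 and 0.22 (exact permutation p = 0.435 and 0.0476). Those of thalamus stood at 0.20 and 0.07 (exact permutation p = 0.403 and 0.784). These p values are unadjusted. The 4 of 6 thalamus genes bright enough to be tested were all above 0 in both, with medians of 0.19 and 0.34, and in ob/ob 3 of them had an unadjusted p under 0.05 and 0 passed (limma). Markers of cortical interneurons stood at 0.054 and 0.076, and those of tanycytes and ependyma at 0.069 and 0.092. The part of the dissection in these results was not tested further. In whole tissue, fewer cells of a type and less RNA per cell cannot be told apart.

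Pomc is also made in the pituitary, which lies against the hypothalamus. None of 9 pituitary genes measured was bright enough to be tested. Their summed signal ran from 1354 to 1906 in control, 1313 to 1816 in STZ and 1051 to 1756 in ob/ob mice. Of these genes, the hormones Gh and Prl had geometric means of 37.3 and 26.7 in controls, 53.1 and 45.1 in STZ and 43.4 and 33.5 in ob/ob mice. Others were brighter. Tbx19 ran from 205.1 to 365.1 in control, 213.7 to 342.5 in STZ and 210.6 to 312.2 in ob/ob mice. Tshb ran from 255.8 to 376.1, 155.6 to 487.1 and 177.5 to 470. Cga, the shared subunit of pituitary hormones, varied from 30.1 to 512 among controls and had geometric means of 150, 63.4 and 54.4 in control, STZ and ob/ob mice. The part of Cga-expressing tissue in the Pomc values was not tested. With the pituitary marker level as a covariate Pomc on 1433800_a_at stood at -0.65 in STZ, where the adjusted p was 0.0666, and at -0.75 in ob/ob, where it passed (limma, adjusted p = 0.0258).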

How the data were processed

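RNA from each hypothalamus was measured on 1 array. The deposited intensity values are MAS5 signals, 1 per probe set and array, made by the authors with MAS5 per the submitters' processing notes; version, scaling target and detection calls are not given in the sources used here. From the values, the 2% trimmed mean was 1500.4 on all 17 arrays, and the correlation between arrays ran from 0.954 to 0.972. Probe sets were named from GEO's platform annotation (20380 with 1 symbol, 691 with several, 1555 with none), and groups from the titles.

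Without the 64 control probe sets, log2 signals were filtered at the 40th percentile of their mean over all arrays, which kept 13576 probe sets. Group means were compared with limma 3.58.1 in R 4.3.3 (lmFit, eBayes with a trend) on all 17 arrays, with Benjamini-Hochberg adjustment over all probe sets tested and a threshold of 0.05. Single values were compared with exact two-sided permutation tests, and correlations with exact or 100000 random permutations within groups (scipy 1.17.1). For each gene the brightest probe set with 1 symbol stood for it, one ending in _x_at or _s_at only where there was no other. Named genes were the members, the 5 most and 3 least like genes, and the 3 smallest p-values of each list.

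Alternatives were the filter, quantile normalization, a pseudocount of 64, other variance settings, covariates and leaving out each array. The fit was tested on simulated data. The members and lists were chosen with earlier results of these data known. The number of arrays limits the precision.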

Additional observations from a re-analysis of the deposited data

How the results depend on the processing

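No setting turned the direction of Pomc, Cartpt or Npy against control. In STZ, Pomc 1433800_a_at missed the threshold with no filter and without a variance trend (-0.65 in each; limma, adjusted p = 0.0569 and 0.0634), with the pituitary covariate (-0.65) and with the region covariate (-0.59); leaving out arrays gave -0.72 to -0.59. In ob/ob it missed in the fit of those groups alone (-0.75) and with the region covariate (-0.66). By exact permutation, with no adjustment over the array, Cartpt (-0.35 in STZ, -0.29 in ob/ob) and Npy (0.34 and 0.27) were under 0.05. The share of all probe sets under 0.05 by that test was not computed. By limma, unadjusted, it was 8.24% in STZ and 11.9% in ob/ob. Leaving out arrays gave -0.40 to -0.28 for Cartpt in STZ and a correlation of Cartpt and Npy of -0.80 to -0.57. The probe sets called numbered 7 in STZ (0 to 18 without 1 array). In ob/ob there were 17, against 29 with quantile normalization, 6 in the fit of those groups alone, 0 with the region covariate (limma; 1327 at an unadjusted p under 0.05) and 8 to 43 without 1 array. In ob/ob against STZ there were 5, against 1 with no filter, the groups alone, the region covariate or the replicate block, 3 with the 60th percentile filter, 2 with the pituitary covariate and 1 to 9 without 1 array. Deviations of 16 same-numbered pairs of arrays correlated from -0.17 to 0.11 (median 0.023). Those of 80 differently numbered pairs correlated from -0.37 to 0.40 (median 0.0014). Whether replicate numbers pair samples cannot be told from these values. With the replicate block Pomc 1433800_a_at stood at -0.65 and -0.77 (limma, adjusted p = 0.0446 and 0.014), and 1455858_x_at passed in STZ too (-1.32, adjusted p = 0.0369). The causes were not tested. Few arrays, and dim signal for 1455858_x_at, limit what can be told.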
